A study of Mus musculus with 25 samples.

Results

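RIKEN symbols are provisional names that mouse genes keep until a function is known, and several series of such symbols, those of 4921507P07Rik and 4931409K22Rik among them, trace back to cDNA clones from adult mouse testis. The genes described here were the rows whose symbol shares its first 4 digits with either of these and that held at least 20 unique molecular identifiers (UMIs, tags that count each captured transcript once) over the 11 wild-type testis libraries. Of 29,244 genes in the tables, 56 had such a symbol and 54 reached the limit, 28 from the series of 4921507P07Rik and 26 from that of 4931409K22Rik. Just inside it were 4931403E22Rik with 22 UMIs, 4921514A10Rik with 21 and 4931406G06Rik with 20. Both genes below it, 4931414P19Rik with 8 UMIs and 4931429P17Rik with 6, were set aside. Because wild-type UMIs chose the genes, their detection in wild-type testes is no result, and the choice favours genes that are high there over genes that are high in the mutants.

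The libraries were made by Drop-seq, which captures the 3′ ends of transcripts from single cells in droplets. The groups were 11 wild-type testis libraries labelled C57BL/6 aged 3 months 1 day to 9 months 14 days (WT1 to WT11), 6 of Mlh3-/- mice labelled B6;129 aged 2 months 21 days to 8 months 30 days, 2 of Cul4a-/- mice labelled B6;129 aged 1 month 18 days and 1 month 21 days, 2 of mice labelled C57BL/6 with the CNP eGFP BAC TRAP transgene (CNP) aged 2 months 14 days and 2 months 16 days, and 4 sorted populations labelled C57BL/6. Of the sorted cells, the spermatogonia, labelled Pouf51-EGFP, were pooled from 7-day-old littermates, and the primary spermatocytes, secondary spermatocytes and spermatids came from wild-type mice aged 2 months 21 days. The study's methods name the strains otherwise in part: a Pou5f1-EGFP reporter line on B6;CBA for the spermatogonia, B6.129 for Mlh3, and C57BL/6J for wild-type and CNP. Mlh3 encodes a MutL homolog that acts on recombination intermediates at crossovers, and spermatocytes without it are known not to complete the first meiotic division. Cul4a encodes a scaffold of ubiquitin ligases, and the CNP transgene is a bacterial artificial chromosome with the promoter of the myelin gene Cnp. WT1, WT2 and the sorted spermatogonia were dissociated with enzymes and all others mechanically, so comparisons used WT3 to WT11. The ages of the Cul4a-/- and CNP mice are those of the labels, and the study's own list of its samples has them the other way round. Wild-type and Mlh3-/- testes carry different background labels, so genotype and background cannot be told apart in that contrast. A 3′ tag need not lie in the deleted part of Mlh3, and its own UMIs were not used here to check the label. The study does report differential expression of Mlh3 itself in the mutant cells.

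Germ cells of the testis pass from spermatogonia through leptotene, zygotene and pachytene spermatocytes and both meiotic divisions to round and then elongating spermatids. Transcription changes in waves along this path: genes of recombination precede the piRNA genes of pachytene, and genes of the acrosome, flagellum and compacted chromatin follow in spermatids. Mouse testis is also known for its many long noncoding RNAs, many of them seen only in spermatocytes and spermatids.

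Of the 54 genes, 46 matched an entry of RefSeq (GRCm38.p6), 35 by symbol and 11 by a synonym, and of these 25 are annotated as protein coding, 19 as long noncoding RNA and 2 as pseudogenes. Several matched genes have since gained names: 4921511H03Rik is Tex47, 4921530L21Rik is Spertl, 4931440L10Rik is Mgat4e of a glycosyltransferase family, 4931431F19Rik is Ubqln5 of the ubiquilins, which bind ubiquitin, 4931440F15Rik is Fem1al, 4931423N10Rik is Potegl, 4931409K22Rik is Iqca1l, 4931429I11Rik is Jhy, which ependymal cilia need, and 4931406P16Rik is Garre1, a Rac effector. The most abundant, 4921507P07Rik, lies at chr6:50573302-50596852 on the minus strand, 4921539E11Rik at chr4:103230445-103290954 on the minus strand and 4921530L21Rik at chr14:95881254-95882780 on the plus strand (GRCm38). In GENCODE M21, 36 of the 52 genes listed overlap another gene, 11 on the same strand and 29 on the opposite strand. Examples are 4921507L20Rik (Alkbh3os1) against the DNA repair gene Alkbh3 and 4921531C22Rik against Taf4, and no source used here says whether the counting used strand, so reads of such pairs cannot be told apart. Counts of 4921501E09Rik, which RefSeq names Phf8-ps, may also share reads with its parent gene. Both X-linked members, 4921511C20Rik and 4931400O07Rik, peaked in round spermatid-like cells.

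Promoters, as 250 bases before and 50 after the transcript start that the RefSeq table uses, were described for the 36 genes that have one there. For 26 this start is the outer end of the gene and for 10 it lies inside the gene's outer bounds, by 262 bases in 4921507P07Rik and 91 in 4921539E11Rik, so that the window of the former lies within the span given above for the gene. They held a median of 4 CG dinucleotides against 7 over all 27,025 promoters. The median was 25.5 for the 6 promoters of genes that peaked before the meiotic divisions. It was 5 for the 9 of genes that peaked in the divisions and 2 for the 21 of genes that peaked in spermatids. Of the 6 early genes, 4921524J17Rik alone had a peak whose counting interval, described with the peaks below, lay apart from that of the next class. The peak of 4931440J10Rik rests on 2 UMIs, 4931428L18Rik was nearly flat, and 4931423N10Rik and 4931415C17Rik stood nearly as high in the divisions. The next class of 4931406C07Rik also lies before the divisions. The 25.5 thus describes genes grouped by nominal peak. A promoter is printed for the gene with the most UMIs among those peaking in leptotene/zygotene, the divisions, round spermatids and elongating spermatids, because they span the range from many to few CG. The sequences are RefSeq's for GRCm38.p6, read 5′ to 3′ on the strand of the gene, with each CG in capitals.
4921524J17Rik, chr8:85432792-85433091 (-): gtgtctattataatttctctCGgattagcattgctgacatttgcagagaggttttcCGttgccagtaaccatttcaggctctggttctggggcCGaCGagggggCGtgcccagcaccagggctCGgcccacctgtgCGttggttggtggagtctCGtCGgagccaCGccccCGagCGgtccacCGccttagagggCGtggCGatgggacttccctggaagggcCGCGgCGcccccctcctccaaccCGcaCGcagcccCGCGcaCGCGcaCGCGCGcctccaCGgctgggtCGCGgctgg
4931417E11Rik, chr6:73469618-73469917 (-): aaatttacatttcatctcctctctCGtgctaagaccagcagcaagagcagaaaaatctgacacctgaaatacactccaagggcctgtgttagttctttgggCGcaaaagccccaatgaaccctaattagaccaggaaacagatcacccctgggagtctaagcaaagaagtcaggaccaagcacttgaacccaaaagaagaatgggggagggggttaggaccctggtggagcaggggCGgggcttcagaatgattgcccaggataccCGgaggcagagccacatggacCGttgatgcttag
4921539E11Rik, chr4:103290814-103291113 (-): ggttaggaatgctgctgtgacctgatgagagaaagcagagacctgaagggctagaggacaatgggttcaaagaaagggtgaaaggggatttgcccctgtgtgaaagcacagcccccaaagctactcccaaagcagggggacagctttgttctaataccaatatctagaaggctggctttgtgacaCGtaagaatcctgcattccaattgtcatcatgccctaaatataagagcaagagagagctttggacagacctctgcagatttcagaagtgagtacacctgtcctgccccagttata
4921507P07Rik, chr6:50596541-50596840 (-): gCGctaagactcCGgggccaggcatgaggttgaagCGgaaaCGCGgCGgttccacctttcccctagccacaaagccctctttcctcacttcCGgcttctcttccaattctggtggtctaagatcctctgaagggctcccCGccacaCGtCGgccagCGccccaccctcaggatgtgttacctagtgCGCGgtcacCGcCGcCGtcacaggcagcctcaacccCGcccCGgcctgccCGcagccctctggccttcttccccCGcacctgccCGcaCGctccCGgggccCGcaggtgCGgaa
4921524J17Rik, which peaked in leptotene/zygotene-like cells, has 30 CG dinucleotides, 4931417E11Rik of the divisions has 5 and 4921539E11Rik of round spermatids has 1. 4921507P07Rik, which peaked in elongating spermatid-like cells, has 25, and it overlaps 5430402O13Rik on the other strand. The 13 promoters of round spermatid genes held 1 to 5, but the classes overlap, with 0 to 25 in the 8 of elongating spermatid genes, 2 to 44 in the 9 of the divisions and 6 and 30 in both of leptotene/zygotene. Among division genes 4921531C22Rik had 44, 4921504A21Rik 32, 4921507G05Rik 30 and 4931422A03Rik 19, and the elongating spermatid gene 4921536K21Rik had 19. On both strands 4 short motifs were searched: CAACTG, a core bound by MYB factors, was in 5 of 36 promoters against 13.6% of all promoters, and all 5 belong to spermatid genes. GTTGCC, part of the site of RFX factors, was in 6 of 36 (12.7% of all), TATAAA in 4 of 36 (14.2% of all), and TGACGT, a part of the cAMP response element, in 1 of 36 (7.65% of all). No motif contains another.

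The 25 libraries held 107,117 to 9,745,302 UMIs. Together the genes took 2,636 to 2,932 CPM (the gene's UMIs scaled to a library of 1000000) in WT3 to WT11, 669 to 1,006 in Mlh3-/-, 2,340 and 2,516 in Cul4a-/- and 2,653 and 2,306 in CNP libraries. Of the 24,464 cells of WT3 to WT11 that passed the filters, 66.3% fell in clusters that no fixed marker list named, and 32.5% in named germ classes. By class there were 24 cells like spermatogonia, 160 like leptotene/zygotene and 420 like pachytene spermatocytes, 2,118 meiotic division-like cells, and 2,263 round and 2,959 elongating spermatid-like cells. Wherever a peak or level is given for the divisions, this division-like class is meant. How many of its cells were dividing was not tested. Sorted primary spermatocytes, secondary spermatocytes and spermatids held 21, 19 and 14 division-like cells. None of the RIKEN genes took part in the clustering or naming. The 24 spermatogonia-like cells held 34,210 UMIs in all, so that 1 UMI there is worth 29.2 CPM, and a gene without a UMI could still stand at up to 87.7 CPM (the limit of 3 UMIs). A cluster of 681 cells over all strains, closest to pachytene with a mean log2 marker fold of 0.47 against a limit of 0.5 set after the clusters were seen, stayed unnamed. A limit on the ribosomal RNA mt-Rnr2 took Mlh3-/- cells from 9,606 to 2,786. Doublets were not removed. No pair of libraries shared more than 27 barcodes.

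The genes peaked late. With the peak taken as the class with the highest CPM over WT3 to WT11, 20 peaked in round and 9 in elongating spermatid-like cells, 13 in the meiotic divisions, 6 in pachytene-like, 3 in leptotene/zygotene-like and 2 in spermatogonia-like cells, and 4921514A10Rik had too few UMIs (7) in these classes for a peak. Among 14,601 genes with at least 20 UMIs and a peak, 18.3% peaked in round spermatid-like cells, against 37.7% of the RIKEN genes, and 16.0% against 24.5% peaked in the divisions. At the other end, 23.3% of all genes but 3.77% of the RIKEN genes peaked in spermatogonia-like cells. For 24 genes the 95% Poisson interval of the peak class lay apart from that of the next class, 12 of them in round, 6 in elongating spermatid-like and 5 in meiotic division-like cells. The interval covers counting error only. This count was not made over all genes, so it describes these genes and does not set them apart from others. Other choices of weights, resolution, libraries or cell filter kept the peak of 50 to 52 of the 53 genes. Those that moved were 4931422A03Rik, 4931440J10Rik, 4931406P16Rik, 4931429I11Rik, 4921539E11Rik and 4921504E06Rik.

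**Figure D1:**
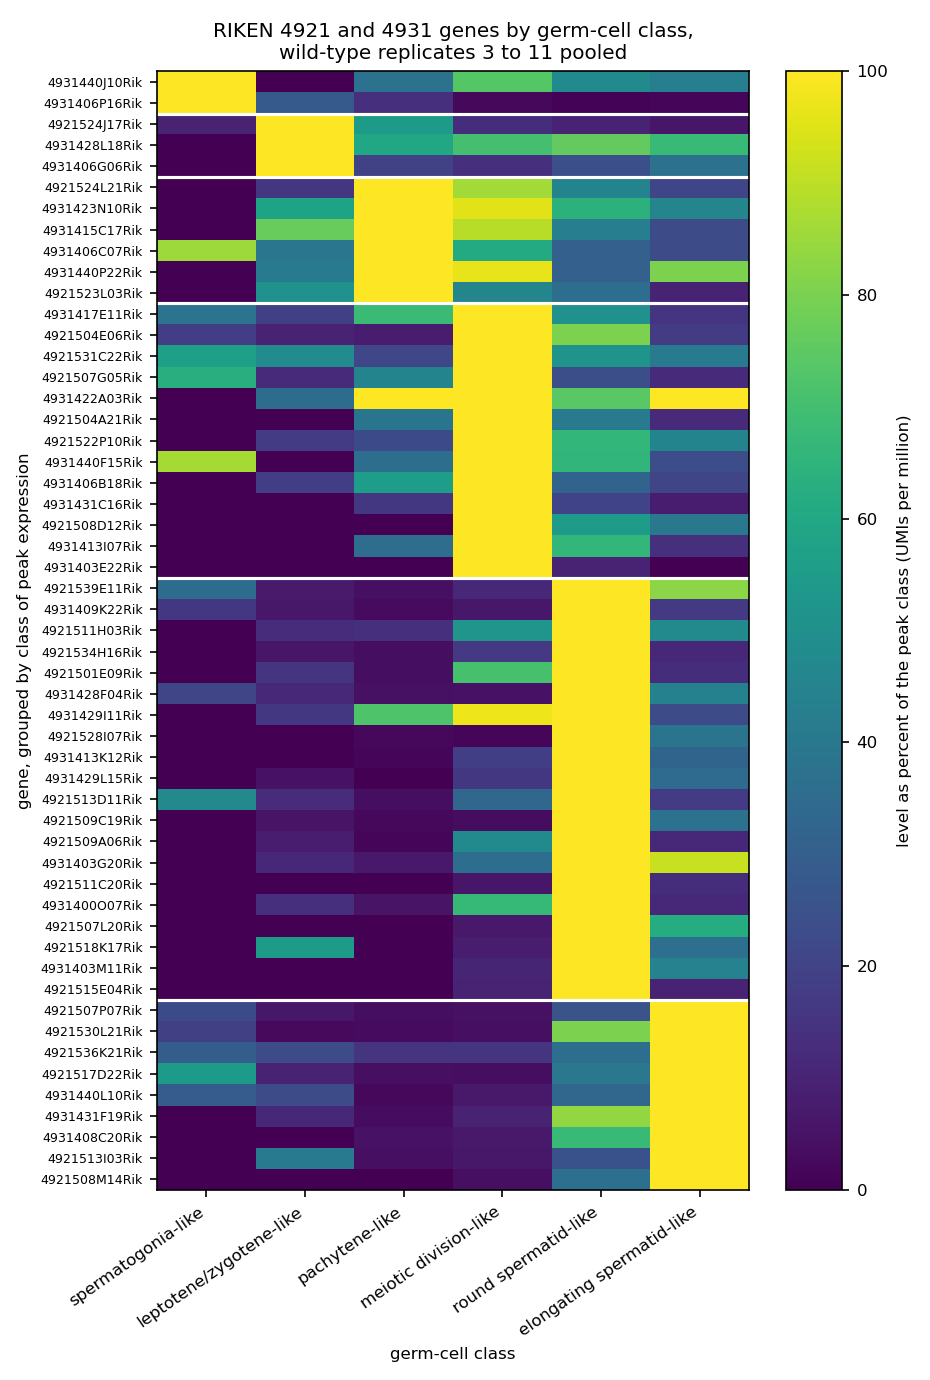
Level of each RIKEN gene in the 6 germ classes of WT3 to WT11, as a percent of its level in its peak class; genes (rows) are ordered by class of peak expression and classes (columns) by development. Yellow is the peak (100) and dark purple near 0: most rows turn bright only from the meiotic divisions onward, and the 20 rows of round spermatid-like peaks form the largest block. The gene without a peak is left out.

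Few of the genes peaked before pachytene, and counts there were low. 4931406P16Rik (192 UMIs over WT1 to WT11), the Rac effector Garre1, stood at 175 CPM in spermatogonia-like cells (95% interval 64.4 to 382, from 6 UMIs), at 49.9 in leptotene/zygotene-like, 24.3 in pachytene-like and 1.64 to 3.73 in later cells. 4931440J10Rik (877 UMIs) has a nominal peak there that rests on 2 UMIs, at 58.5 CPM (7.08 to 211), and its best measured level was 43.1 CPM in the divisions. 4921524J17Rik (1,122 UMIs) stood at 288 CPM (227 to 361) in leptotene/zygotene-like cells, 157 in pachytene-like and 17.1 to 37.5 in later cells, and it was the single gene of this early set whose peak interval lay apart from the next. 4931428L18Rik (1,102 UMIs) was nearly flat, with 61.4 CPM in leptotene/zygotene-like cells (35.1 to 99.8) and 36.5 to 46.6 in later classes. The peak of 4931406G06Rik (20 UMIs) rests on 1 UMI.

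The 6 genes of pachytene-like cells had broad profiles. 4921524L21Rik (1,588 UMIs) stood at 96.5 CPM in pachytene-like cells, 83.0 in the divisions, 43.6 in round and 20.2 in elongating spermatid-like cells. 4931423N10Rik (1,413 UMIs), a member of the ankyrin-repeat POTE family, stood at 73.0, 69.7, 46.9 and 33.1 CPM in the same order, and 4931406C07Rik (822 UMIs) at 68.4, 41.8, 21.1 and 15.7. 4931415C17Rik (834 UMIs) reached 60.0 CPM, 4931440P22Rik (538 UMIs) 28.1 and 4921523L03Rik (238 UMIs) 22.8. In every case the interval of the pachytene-like class overlapped that of the next class, and the peak was 1.14 times the next level at the median.

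In meiotic division-like cells 13 genes were highest. 4931417E11Rik (4,427 UMIs), a protein-coding gene of unknown function, led them at 307 CPM (289.6 to 325), after 210 in pachytene-like cells and before 155 and 47.6 in round and elongating spermatid-like cells. 4921504E06Rik (2,893 UMIs) rose from 12.9 CPM in pachytene-like cells to 162 in the divisions and kept 130 in round spermatid-like cells. 4921531C22Rik (1,707 UMIs), a noncoding RNA opposite the transcription factor gene Taf4, reached 104 CPM, 4921507G05Rik (1,089 UMIs) 92.9, 4921504A21Rik (853 UMIs) 72.6, 4921522P10Rik (759 UMIs) 43.6 and 4931440F15Rik (625 UMIs), the Fem1 relative, 33.8. 4931422A03Rik (1,055 UMIs) had no clear peak, with 43.4 CPM in the divisions and 43.3 in both pachytene-like and elongating spermatid-like cells. The others were lower: 4931406B18Rik (299 UMIs) at 20.5 CPM, 4931431C16Rik (149) at 14.1, 4931403E22Rik (22) at 2.40, and 4921508D12Rik (33) and 4931413I07Rik (31) both at 2.13. 4931431C16Rik was the sharpest of those with over 100 UMIs, at 5.02 times its next level.

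Round spermatid-like cells held the largest set, 20 genes. 4931409K22Rik (5,622 UMIs), the IQ-motif gene Iqca1l, stood at 543 CPM (521 to 566) there, 5.84 times its level of 92.9 in elongating spermatid-like cells and far above the 15.2 CPM of pachytene-like cells. 4921539E11Rik (6,005 UMIs) was spread over both spermatid classes, at 414 and 342 CPM. The edgeR test within libraries, described after the peaks, called it higher in elongating than in round spermatid-like cells (log2 change 0.29, adjusted p = 0.00132), and without the mt-Rnr2 limit its peak lay in the elongating class, so its peak is not secure. 4921511H03Rik (5,140 UMIs), the testis-expressed gene Tex47, already stood at 173 CPM in the divisions before 332 in round spermatid-like cells. 4921534H16Rik (1,854 UMIs), a noncoding RNA opposite Clstn2, reached 192 CPM, 6.01 times its next class. 4921528I07Rik (1,403 UMIs) stood at 149 CPM, 4931428F04Rik (1,505) at 139 and 4921501E09Rik (1,507), the Phf8 pseudogene, at 100.3.

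Further genes of this class were 4931413K12Rik (979 UMIs, 79.9 CPM), 4931429L15Rik (958 UMIs, 76.1 CPM), 4921509C19Rik (778 UMIs, 73.8 CPM), 4921513D11Rik (803 UMIs, 61.4 CPM), 4921509A06Rik (653 UMIs, 49.7 CPM) and 4931403G20Rik (606 UMIs, 33.0 CPM). 4931429I11Rik (1,420 UMIs), the cilium gene Jhy, was the least specific, with 71.2 CPM in round spermatid-like cells, 69.5 in the divisions and 51.7 in pachytene-like cells. The X-linked 4921511C20Rik (467 UMIs) stood at 51.5 CPM, 7.53 times its next class, and had no UMI in pachytene-like cells, which allows up to 2.28 CPM (3 UMIs). The other X-linked gene, 4931400O07Rik (422 UMIs), stood at 28.6 CPM in round spermatid-like and 19.2 in division-like cells. The rarest were 4921507L20Rik (164 UMIs) at 11.9 CPM, 4921518K17Rik (82) at 7.03, 4921515E04Rik (29) at 2.81 and 4931403M11Rik (35) at 2.58.

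The 9 genes highest in elongating spermatid-like cells include the most abundant of all. 4921507P07Rik (8,988 UMIs) stood at 1,043 CPM (1,009 to 1,077) there, 3.89 times its round spermatid-like level and with 38.8 to 45.2 CPM in pachytene-like and division-like cells. 4921530L21Rik (3,775 UMIs), the spermatid gene Spertl, stood at 308 and 247 CPM in elongating and round cells, and 4921536K21Rik (3,101 UMIs) at 296 and 108. 4921517D22Rik (1,529 UMIs) reached 161 CPM, 4931440L10Rik (978 UMIs), the glycosyltransferase relative Mgat4e, 100.4, 4931431F19Rik (823 UMIs), the ubiquilin Ubqln5, 65.6, and 4931408C20Rik (600 UMIs) 47.0. 4921513I03Rik (336 UMIs) stood at 37.1 CPM and 4921508M14Rik (142 UMIs) at 12.8. 4921514A10Rik (21 UMIs), the gene without a peak, had UMIs in both spermatid classes alone among the germ classes.

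In droplet data free RNA can give UMIs in cells that do not express a gene. Levels in wild-type Sertoli-like cells, a somatic class, were therefore set beside those of the germ classes. In 111 Sertoli-like cells (83,606 UMIs, 753 per cell against 1,185 to 3,133 per cell in the germ classes from pachytene on) the RIKEN genes together took 1,902 CPM, with 239 CPM for 4921507P07Rik, 155 for 4921530L21Rik and 95.7 for 4931409K22Rik. In Mlh3-/- Sertoli-like cells the same genes stood at 7.71, 0 and 0 CPM, whereas 4931417E11Rik (92.5 CPM), 4921524J17Rik (71.9), 4931406P16Rik (69.4) and 4921524L21Rik (66.8) had UMIs there. Over the pooled whole Mlh3-/- libraries these stood at 123, 107, 33.4 and 80.9 CPM. Of them, 4931406P16Rik alone was thus higher in Sertoli-like cells than in the pooled libraries. The part of free RNA in these levels was not tested. The peak class lay above the Sertoli-like interval for 17 of the 53 genes with a peak, 8 of them round and 4 elongating spermatid genes, among them 4921507P07Rik, 4931409K22Rik and 4931417E11Rik. For the other 36 a difference was not detectable at the Sertoli-like depth. Counts of intervals set against Sertoli-like cells, here and below, were not made over all genes and are descriptions. The spermatogonia-like level of 4921507P07Rik, 234 CPM from 8 UMIs, was likewise no higher than its Sertoli-like level.

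Adjacent classes of the same libraries were then compared with edgeR's quasi-likelihood test with the library as a block, with p-values adjusted by Benjamini-Hochberg over 16,830 genes and fold changes normalized by TMM, which scales libraries on genes that change least. From pachytene-like to division-like cells 24 of the 54 RIKEN genes rose and 3 fell (22.8% and 15.2% of all genes tested), with a median log2 change of 1.01 against 0.24 over all genes. 4931409K22Rik rose by 1.53 on the log2 scale and 4921511H03Rik by 2.20, while the 3 that fell were 4921524J17Rik (log2 change -1.81), 4931406P16Rik (-2.21) and 4921523L03Rik (-0.93). From the divisions to round spermatid-like cells 31 rose and 9 fell (31.2% and 21.5% of all genes), with a median of 1.26 against 0.15. Among them 4921530L21Rik rose by 4.78, 4931409K22Rik by 4.49 and 4921517D22Rik by 3.87, whereas 4931417E11Rik fell by 0.44 and 4921531C22Rik by 0.37.

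From round to elongating spermatid-like cells 12 rose and 19 fell (18.4% and 18.5% of all genes), with a median of -0.37 against 0.04. 4921507P07Rik rose by 2.54 and 4921536K21Rik by 2.03, and 4921534H16Rik fell by 2.59 and 4931409K22Rik by 1.98. DESeq2, whose scaling moved the median of all genes there from 0.04 to 0.47, gave 16 higher and 15 lower RIKEN genes. From leptotene/zygotene-like and spermatogonia-like cells together to pachytene-like cells 9 rose and 1 fell (12.6% and 7.75% of all genes), but this step turned with the scaling, since DESeq2 moved the median of all genes from 0.06 to -0.77 and gave 4 higher and 11 lower. 4921504E06Rik was called higher in round spermatid-like than division-like cells by 0.25 although its CPM was lower there, and its change was -0.02 at another cluster resolution and 0.05 to 0.23 with 1 library left out.

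The genes most like the leading gene of each class were picked by a search, so a high likeness follows in part from the choice. Likeness was Pearson's r of log2(CPM + 1) over 44 library-by-class sums of WT3 to WT11 among 4,345 genes with at least 500 UMIs, and the sums share libraries and depth. 4921524J17Rik was most like Ddx39, Sycp1, which encodes a synaptonemal complex protein, and Cdk12 (r = 0.946, 0.934 and 0.934). 4921524L21Rik was most like Cerk, Optn and Lancl1 (0.857, 0.803 and 0.795), and 4931417E11Rik like Nxn, Yif1a and Ccdc110 (0.944, 0.937 and 0.936). 4921539E11Rik was most like Allc, Trim36 and another RIKEN gene, 4930404N11Rik (0.891, 0.885 and 0.884), and 4921507P07Rik like Znrf4, Csnka2ip and Mlf1 (0.901, 0.882 and 0.857). For 4931440J10Rik, whose peak is not secure, the nearest were Pcdha10, Kbtbd11 and Nt5c (0.900, 0.899 and 0.896). No library held 10 spermatogonia-like cells, so no sum of that class took part and this likeness says nothing about it.

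The sorted populations were gated without clustering, but the groups of genes summed in them were set by peaks in the clustered classes. Each population had 1 library and so no replicate check. The genes that peaked in elongating spermatid-like cells took 4.28 CPM of the sorted spermatogonia (95% Poisson interval 1.39 to 9.99), 121 (64.6 to 208) of primary spermatocytes, 1,019 (900.3 to 1,149) of secondary spermatocytes and 1,328 (1,186 to 1,483) of spermatids. Genes of round spermatid-like peaks took 24.8, 495, 1,328 and 1,290 CPM in the same order, and those of the divisions 47.9, 411, 393 and 308. In sorted spermatogonia 4931428F04Rik alone held 26 of the 29 UMIs of the round spermatid genes (22.3 CPM). Genes of pachytene-like peaks took 299 CPM (204 to 422) of primary spermatocytes, 63.3 (49.7 to 79.5) of spermatogonia, 202 (152 to 265) of secondary spermatocytes and 173 (124 to 235) of spermatids. The interval of primary spermatocytes lay apart from that of spermatogonia and overlapped those of secondary spermatocytes and spermatids. 4931406P16Rik took 147 CPM (126 to 171) of the sorted spermatogonia and 0 to 16.9 of the other populations, whereas 4931440J10Rik took 1 UMI of 1,168,498 there. 4931406C07Rik, whose peak lay in pachytene-like cells, was highest in sorted spermatogonia at 50.5 CPM (38.4 to 65.1), and 4921531C22Rik stood at 42.8 to 50.6 CPM in spermatogonia, secondary spermatocytes and spermatids alike. The primary spermatocyte library held 117 erythroid-like and 24 pachytene-like cells among 188, and the secondary spermatocyte library 39 round and 23 elongating spermatid-like cells among 154, so neither gate was pure.

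In Mlh3-/- testes most of these genes were lower. Over whole libraries (WT3 to WT11, n = 9, against Mlh3-/-, n = 6) 47 of the 54 were lower and 2 higher, against 32.7% lower and 28.9% higher of all 23,168 genes tested (edgeR quasi-likelihood, adjusted p under 0.05). The median log2 change was -4.37 against 0.00 over all genes, and -2.66 with the 11 genes that had no UMI in any Mlh3-/- library set at the bound that 3 UMIs over the group allow. In 34 genes every Mlh3-/- library lay below every wild-type library (13.3% of all genes), and in 2 every one lay above (23.7%). Of all 15,247 genes with at least 20 wild-type UMIs, which the rule also requires, 44.2% were lower. In bulk sums fewer cells of a type and less RNA per cell cannot be told apart. Scaling by library size alone in place of TMM moved the median of all genes by 0.69, turned the split of all genes from 7,583 lower and 6,698 higher to 5,126 and 10,466, and left 39 RIKEN genes lower and 4 higher. With the HiSeq libraries alone, a sequencer that both groups share, 45 were lower and 2 higher.

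Genes of spermatid peaks had the largest median loss. All 9 genes of elongating and all 20 of round spermatid-like peaks were lower (median log2 changes -8.56 and -7.09, or -6.83 and -6.81 with genes without a UMI at their bound), 10 of the 13 genes of the divisions were lower (median -1.45), and 4 of the 6 pachytene genes (median -0.59). In the earlier classes 2 of the 3 leptotene/zygotene genes were lower (median -1.52) and 1 of the 2 spermatogonia genes. The difference between classes was not tested. Calls were not counted by peak class over all genes, so these counts do not set the RIKEN genes apart from other genes with the same peaks. The 4 pachytene genes, 4921524L21Rik (-0.51), 4931423N10Rik (-0.70), 4931415C17Rik (-0.67) and 4931440P22Rik (-0.72), stood at 0.23, 0.04, 0.07 and 0.0033 under scaling by library size alone, which moved all genes by 0.69 at the median, so that changes of this size take their direction from the scaling. None of the 4 was called with the replicate block, and without Mlh3-/- replicate 1 only 4931423N10Rik was, with 4921524L21Rik at -0.20, 4931415C17Rik at -0.38 and 4931440P22Rik at -0.39. 4921524L21Rik was not called without replicate 3 either (-0.37). Beside these changes, the 12 spermatid genes of a fixed list, such as the protamines Prm1 and Prm2, took 27,927 to 51,008 CPM of wild-type and 135 to 373 CPM of Mlh3-/- libraries, and 1 of them had no Mlh3-/- UMI. The 8 somatic genes rose with them, from 203 to 430 CPM in wild-type to 1,738 to 7,356 CPM, and mitochondrially encoded RNA from 0.517 to 1.72% to 4.55 to 13.4% of UMIs. The part of these shifts in the changes of the RIKEN genes was not tested.

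**Figure D2:**
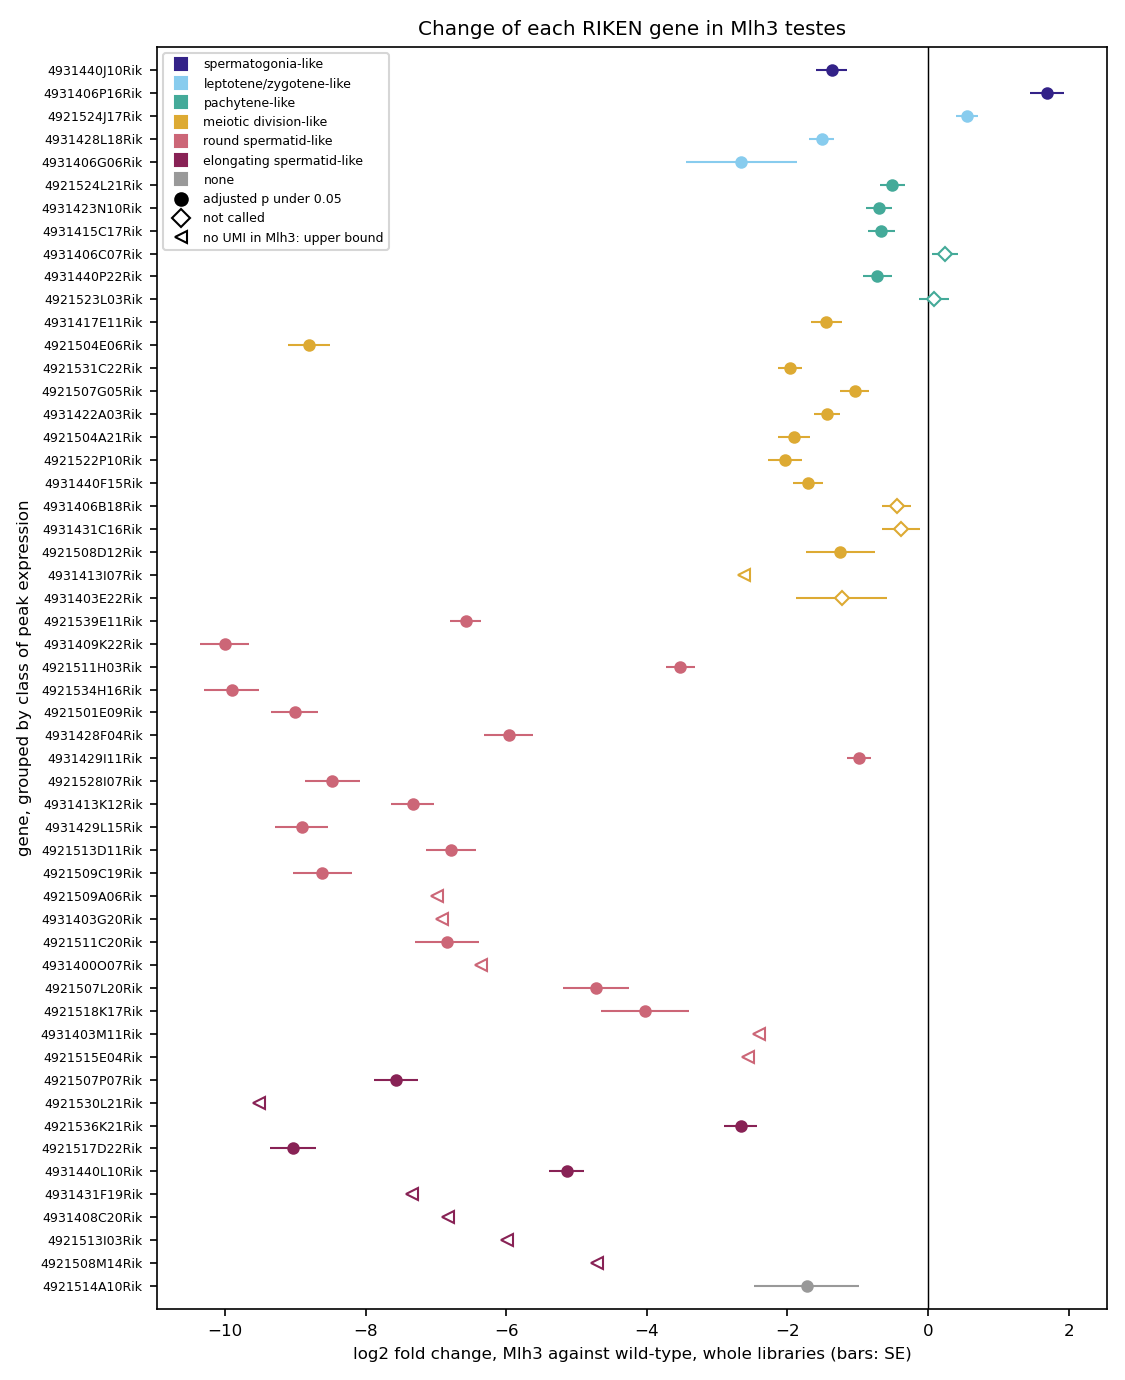
Log2 fold change of each RIKEN gene between Mlh3-/- and wild-type whole libraries (TMM, bars are SE), grouped by class of peak expression; open triangles are upper bounds for genes without a UMI in Mlh3-/-, open diamonds did not pass the test. Most genes of spermatid peaks lie far to the left, but 4931429I11Rik lies at -0.99, and pachytene genes lie between -0.72 and 0.24.

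4921507P07Rik, the most abundant, stood at 285, 324 and 477 CPM (lowest, median and highest of 9) in wild-type and 0.789, 3.36 and 11.1 (of 6) in Mlh3-/- libraries, at 244 and 321 in Cul4a-/- and 281 and 154 in CNP. The wild-type and mutant ranges did not overlap (log2 change -7.57, SE 0.31, edgeR adjusted p = 8.18e-21). 4921539E11Rik stood at 189, 224 and 255 CPM in wild-type against 2.76, 3.67 and 6.66 in Mlh3-/-, with 151 and 165 in Cul4a-/- and 195 and 153 in CNP (log2 change -6.58, SE 0.22). Both genes kept UMIs in all 6 Mlh3-/- libraries. 4931409K22Rik, in contrast, fell from 161, 197 and 245 CPM to 0, 0.160 and 2.22, with UMIs in 3 Mlh3-/- libraries, and stood at 136 and 172 in Cul4a-/- and 208 and 135 in CNP (log2 change -10.001, SE 0.35). Its ratio of wild-type to Mlh3-/- CPM was 788, with a 95% counting interval of 307 to 2,892 because it rests on 4 Mlh3-/- UMIs.

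4921530L21Rik had the largest loss that the counts can bound. It stood at 116, 134 and 187 CPM in wild-type, 129 and 145 in Cul4a-/- and 116 and 118 in CNP, and had no UMI among 15,751,953 of Mlh3-/- testes, at least 732-fold lower than wild-type. 4921534H16Rik stood at 46.6, 70.3 and 85.9 CPM in wild-type, 55.5 and 65.5 in Cul4a-/- and 69.6 and 102 in CNP, with a single UMI in all Mlh3-/- libraries, in replicate 2 (ratio 1,130, interval 202 to 44,642). 4921504E06Rik stood at 86.0, 103 and 120.3 CPM against 0, 0.158 and 0.711 in Mlh3-/-, with 66.8 and 83.3 in Cul4a-/- and 98.0 and 93.8 in CNP (log2 change -8.81, SE 0.30). Its peak in the divisions is not secure, since it lay in round spermatid-like cells without the mt-Rnr2 limit, and its pachytene-like level was 7.99% of its peak. 4921517D22Rik stood at 50.4, 56.2 and 76.1 CPM against 0, 0 and 0.321, and at 60.4 and 72.8 in Cul4a-/- and 65.8 and 42.7 in CNP (log2 change -9.03, SE 0.32).

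A further set of abundant genes kept part of its level. 4921511H03Rik stood at 137, 199.8 and 224 CPM in wild-type and 19.8, 24.9 and 41.8 in Mlh3-/-, with 121 and 135 in Cul4a-/- and 215 and 168 in CNP (log2 change -3.52, SE 0.21). 4921536K21Rik stood at 99.2, 120.1 and 147 CPM against 8.87, 29.3 and 41.8, and at 158 and 168 in Cul4a-/- and 82.5 and 90.1 in CNP (log2 change -2.67, SE 0.23). 4921531C22Rik stood at 55.5, 67.9 and 74.5 CPM against 22.1, 27.1 and 37.2, and at 48.2 and 43.8 in Cul4a-/- and 56.7 and 67.3 in CNP (log2 change -1.96, SE 0.17). In all of these the Mlh3-/- libraries lay below every wild-type library. 4931417E11Rik overlapped, with 148, 165 and 237 CPM in wild-type and 48.8, 99.7 and 168 in Mlh3-/-, and with 148 and 134 in Cul4a-/- and 228 and 196 in CNP (log2 change -1.45, SE 0.22, edgeR adjusted p = 8.48e-07). 4921524L21Rik did not separate at all, at 54.7, 59.0 and 68.0 against 49.3, 64.9 and 100.3 CPM, with 50.7 and 44.02 in Cul4a-/- and 61.9 and 73.9 in CNP.

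**Figure D3:**
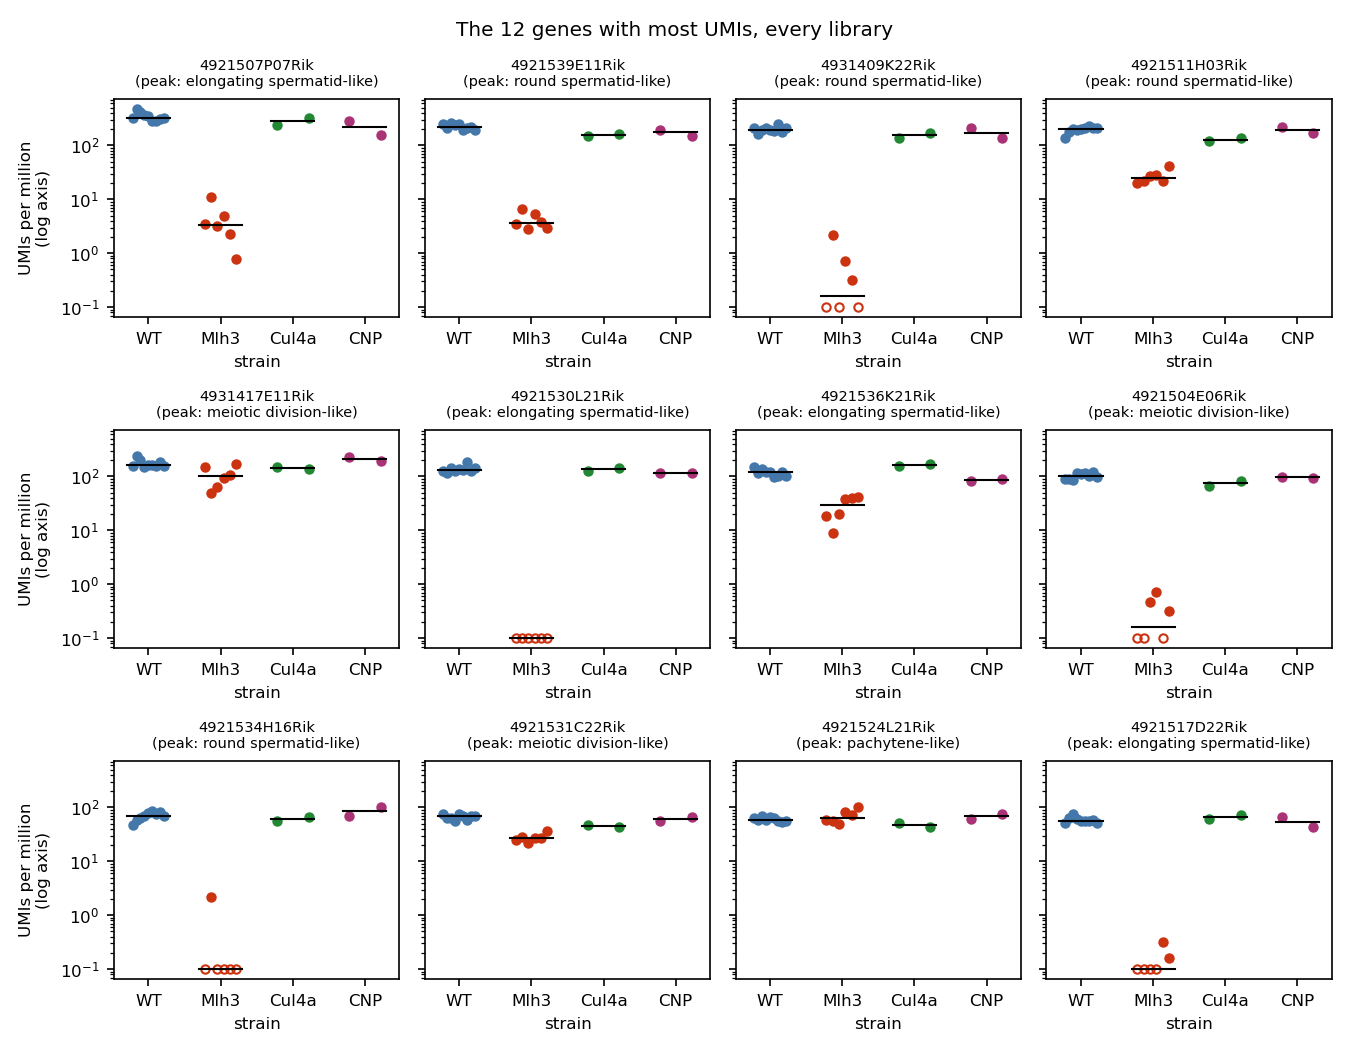
CPM (log axis) of the 12 RIKEN genes with the most UMIs in every library of WT3 to WT11, Mlh3, Cul4a and CNP; each point is a library, black lines are medians, and open points drawn at 0.1 are libraries without a UMI. The Mlh3 points lie below all wild-type points for 10 of the 12 genes and overlap them for 4931417E11Rik and 4921524L21Rik.

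The remaining genes of this comparison were spermatid genes with fewer UMIs. 4921501E09Rik stood at 46.4, 55.1 and 84.2 CPM in wild-type and 0, 0 and 0.356 in Mlh3-/-, with 40.3 and 44.3 in Cul4a-/- and 64.5 and 42.7 in CNP. 4931428F04Rik stood at 43.1, 55.9 and 71.5 against 0.158, 1.12 and 13.3, with 38.3 and 51.4 in Cul4a-/- and 37.4 and 46.4 in CNP (log2 change -5.96, SE 0.35), and its highest Mlh3-/- value came from replicate 2. The ubiquilin 4931431F19Rik stood at 25.6, 31.6 and 38.4 CPM in wild-type and had no UMI in Mlh3-/-, at least 163-fold lower, with 31.9 and 37.5 in Cul4a-/- and 28.4 and 26.5 in CNP. Neither 4931403G20Rik nor 4931408C20Rik had a UMI in Mlh3-/- libraries. The former stood at 18.0, 23.1 and 28.4 CPM in wild-type, 10.5 and 10.9 in Cul4a-/- and 27.1 and 7.58 in CNP, and the latter at 15.4, 20.9 and 32.6, 19.4 and 14.3, and 6.45 and 10.4.

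Of all 54 genes, 11 had no UMI and 14 had 1 to 5 in the 6 Mlh3-/- libraries together. Those without a UMI were at least 5.29-fold (4931403M11Rik) to 732-fold lower, and beside the genes above they included 4921509A06Rik (at least 127-fold lower), 4931400O07Rik (82.0-fold), 4921513I03Rik (63.3-fold), 4921508M14Rik (26.0-fold), 4931413I07Rik (6.14-fold) and 4921515E04Rik (5.93-fold). Among genes with 1 to 3 UMIs the wild-type to Mlh3-/- ratio was 550 for 4931429L15Rik (95% counting interval 98.5 to 21,756), 455 for 4921509C19Rik (81.4 to 17,992), 272 for 4921528I07Rik (92.8 to 1,319) and 91.9 for the X-linked 4921511C20Rik (31.2 to 447). 4931413K12Rik (log2 change -7.33), 4921513D11Rik (-6.78), 4931440L10Rik (-5.14), 4921507L20Rik (-4.72) and 4921518K17Rik (-4.02) were also lower. The change of 4921518K17Rik rests on 4 Mlh3-/- UMIs, 3 of them in replicate 4, and ranged from -5.29 to -3.74 with 1 library left out. The rare 4921514A10Rik and 4931406G06Rik passed the test with 5 and 2 Mlh3-/- UMIs (log2 changes -1.73 and -2.66). Neither call is firm: 4921514A10Rik was not called under most alternatives, DESeq2 and RLE scaling among them, and ranged from -3.21 (without Mlh3-/- replicate 5) to -1.22 (without replicate 6) with 1 library left out, and 4931406G06Rik ranged from -4.45 (without replicate 4) to -2.18 (without replicate 6) and was not called with the replicate block (-2.10).

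Both genes that rose in Mlh3-/- testes had their nominal peak in early germ cells. 4921524J17Rik stood at 34.5, 42.1 and 51.8 CPM in wild-type and 81.5, 109.6 and 126 in Mlh3-/- libraries, with 70.6 and 60.1 in Cul4a-/- and 63.2 and 84.4 in CNP (log2 change 0.55, SE 0.16, edgeR adjusted p = 0.00299). 4931406P16Rik stood at 3.16, 7.24 and 10.2 CPM against 24.3, 31.3 and 91.0, with 8.36 and 8.82 in Cul4a-/- and 16.8 and 13.3 in CNP (log2 change 1.69, SE 0.24, edgeR adjusted p = 3.32e-07). For both, all 6 Mlh3-/- libraries lay above all 9 wild-type libraries, and both kept their direction and call under each alternative run. Within pachytene-like cells neither was called (log2 changes -0.23 and 0.15), with 120.1 CPM (111 to 129) in Mlh3-/- and 157 (136 to 179) in wild-type for 4921524J17Rik and 24.1 (20.2 to 28.5) and 24.3 (16.6 to 34.3) for 4931406P16Rik. In leptotene/zygotene-like cells 4921524J17Rik stood at 402 CPM (347 to 464) in Mlh3-/- and 288 (227 to 361) in wild-type. In Mlh3-/- somatic cells 4921524J17Rik stood at 71.9 CPM (47.8 to 104) in Sertoli-like and 68.0 (51.5 to 88.05) in Leydig-like cells, and 4931406P16Rik at 69.4 (45.7 to 101) and 31.0 (20.2 to 45.4).

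Of the 54 genes, 5 did not pass the test, and none of them peaked in spermatids. 4931406C07Rik had 21.3, 33.4 and 39.2 CPM in wild-type and 37.7, 62.0 and 94.8 in Mlh3-/- libraries (log2 change 0.24, SE 0.18, edgeR adjusted p = 0.262), and without Mlh3-/- replicate 1 or replicate 2 it was called higher (0.50 and 0.40). Under scaling by library size alone it was called higher too (0.998), as was 4921523L03Rik (0.83). 4921523L03Rik had 7.46, 8.62 and 11.6 against 9.32, 16.6 and 28.8 CPM (log2 change 0.08, SE 0.21). 4931406B18Rik (-0.45, SE 0.21) and 4931431C16Rik (-0.39, SE 0.27) had negative estimates that became 0.26 and 0.32 under scaling by library size alone, and 4931403E22Rik (-1.23, SE 0.64) had 8 Mlh3-/- UMIs. With 1 library left out each was also called lower: 4931406B18Rik without Mlh3-/- replicate 4 or 6 (-0.52 and -0.60), 4931431C16Rik without replicate 6 (-0.67) and 4931403E22Rik without replicate 4 (-1.89). Genes called lower by small amounts were 4931429I11Rik (-0.99, SE 0.17), 4921507G05Rik (-1.05), 4931440J10Rik (-1.37), 4931422A03Rik (-1.44), 4931428L18Rik (-1.52), 4931440F15Rik (-1.71), 4921504A21Rik (-1.91) and 4921522P10Rik (-2.04). The rare 4921508D12Rik was called lower (log2 change -1.25) with 14 Mlh3-/- UMIs (edgeR adjusted p = 0.0279), but DESeq2, scaling by library size and several left-out libraries did not call it, and with 1 library left out it ranged from -1.70 (without Mlh3-/- replicate 6) to -0.93 (without replicate 1). Under scaling by library size alone 4931429I11Rik and 4921507G05Rik were not called (-0.24 and -0.32).

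The pachytene-like level of a gene relative to its peak, background RNA included, went with its change in Mlh3-/- testes. Among the 42 genes that peaked from pachytene on and had at least 100 wild-type UMIs, Spearman's rho between the pachytene-like level as a percent of the peak and the log2 change was 0.783, and Pearson's r with the percent on a log2 scale was 0.832, with bounds used for genes without a UMI. Both are descriptions over genes that share libraries. The percent and the change both divide by wild-type levels of the same gene, so a positive relation is in part built in. Genes that peaked in pachytene-like cells stand at 100% by definition. In wild-type the interval of the pachytene-like level lay above that of the shallow Sertoli-like class for 4931415C17Rik alone. In the deeper Mlh3-/- classes it did so for 5 of the 54 genes: 4931417E11Rik stood at 155 CPM (145 to 165) in pachytene-like against 92.5 (64.8 to 128) in Sertoli-like cells, 4931423N10Rik at 97.95 (89.96 to 106) against 20.6 (8.87 to 40.5), and the others were 4921524J17Rik, 4931415C17Rik and 4921536K21Rik. The 25 genes whose pachytene-like level was under 15% of the peak changed by -6.99 at the median (-10.001 to -3.52), the 7 at 15 to 50% by -1.91 (-2.67 to -0.39), and the 10 at 50% or more by -0.69 (-1.45 to 0.24). 4931429I11Rik, the cilium gene Jhy, had no secure peak, with its highest level in round spermatid-like cells in 4 of 9 libraries and in the divisions at another cluster resolution. It already stood at 72.6% of its round spermatid-like level in pachytene-like cells, and its change was -0.99 (-0.24 under scaling by library size alone).

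**Figure D4:**
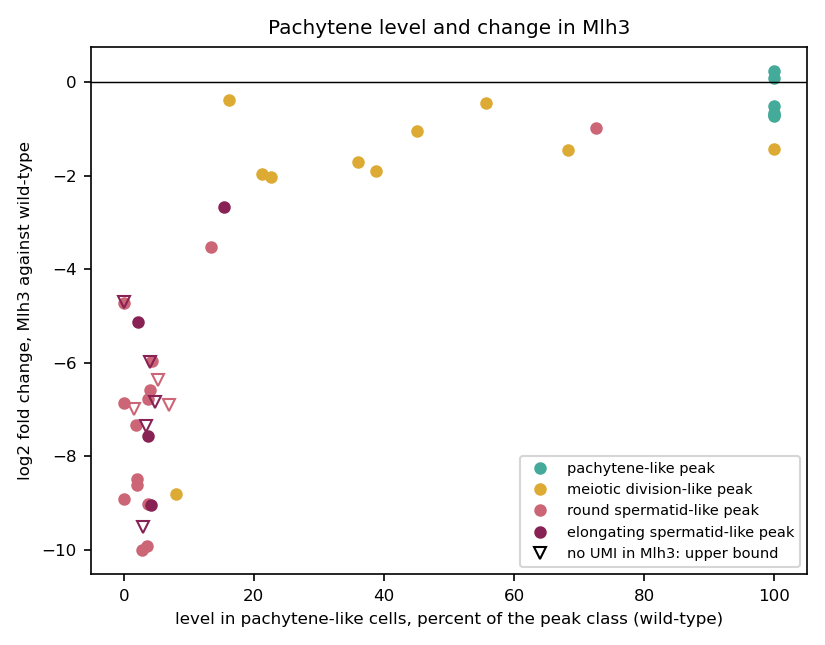
Level of each gene in wild-type pachytene-like cells as a percent of its peak class (x) against its log2 fold change in Mlh3-/- whole libraries (y), for the 42 genes that peaked from pachytene on with at least 100 wild-type UMIs; colours give the class of the peak and open triangles are bounds. The 25 genes left of 15% have a median of -6.99 and the 10 right of 50% a median of -0.69.

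Pachytene-like cells are the last class that both strains hold in number, so the genes were also compared within them. In 5 Mlh3-/- and 8 wild-type libraries with at least 10 such cells, 43 of the genes could be tested, 11 were lower and 0 higher (5.25% lower and 2.97% higher of 14,738 genes tested; edgeR quasi-likelihood). Of the 6 pachytene-peaking genes 0 were called in these cells (median log2 change 0.09, range 0.05 to 0.55), and 4931417E11Rik (log2 change -0.56) was not called either. The 11 peaked in the divisions or in spermatids: 4921507P07Rik, 4931409K22Rik, 4921530L21Rik, 4921504E06Rik, 4921534H16Rik, 4921517D22Rik, 4921501E09Rik, 4931428F04Rik, 4931431F19Rik, 4931403G20Rik and 4931408C20Rik. In 8 of them no Mlh3-/- UMI fell in these cells, and 4921507P07Rik, 4921504E06Rik and 4921517D22Rik had 1 each. All 11 thus passed the limit of 5 counts through the other strains alone, and the count of 11 is a description. The last 3 of the list rest on 3 wild-type UMIs each, with a wild-type median of 0 CPM. They were not called without Mlh3-/- replicate 4 or replicate 6, and DESeq2 gave them no adjusted p. With the replicate block 2 RIKEN genes were lower, without the mt-Rnr2 limit fewer than 11, and with 1 library left out 8 to 13.

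These 11 stood at 0 to 132 CPM in wild-type pachytene-like libraries. 4921507P07Rik stood at 0, 32.9 and 132 CPM (lowest, median and highest) in the 8 wild-type libraries and had 1 UMI in the 5 Mlh3-/- libraries. Wild-type replicate 6 held 20 of its UMIs. Its log2 change of -6.40, from -7.13 to -5.69 with 1 library left out, is a description, since it too passed the count limit through the other strains. 4931409K22Rik stood at 6.78, 15.9 and 31.4 CPM and 4921530L21Rik at 0, 8.38 and 23.7 CPM in wild-type, and both had no UMI in Mlh3-/-. In wild-type Sertoli-like cells the same genes stood at 239, 95.7 and 155 CPM, and for all 11 the pooled wild-type pachytene-like level was below the Sertoli-like level, with intervals apart for 6 genes and overlapping for 5, some of which rest on 1 to 3 Sertoli-like UMIs. Sertoli-like cells held fewer UMIs per cell, which raises the CPM of a given number of free UMIs. Per cell, the pachytene-like level was lower for 9 of the 11, and it was higher for 4921504E06Rik (4.05 against 2.70 UMIs per 100 cells) and 4931428F04Rik (1.91 against 1.80). In no gene of the 11 did the pooled wild-type pachytene-like interval lie above the Sertoli-like interval. Some genes that were not called also stood below the Sertoli-like level, such as 4921539E11Rik (16.7 against 95.7 CPM). Others stood above it, such as 4931417E11Rik (210 against 95.7 CPM). The source of these pachytene-like UMIs was not tested. The 12 listed spermatid genes moved likewise in these cells, with 11 lower (median -6.97). The mix of clusters in the class also differed, with 55.7% of wild-type cells in cluster 13 and 37.1% and 33.9% of Mlh3-/- cells in clusters 28 and 27, and median UMIs per cell were 2,017 and 2,604.

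**Figure D5:**
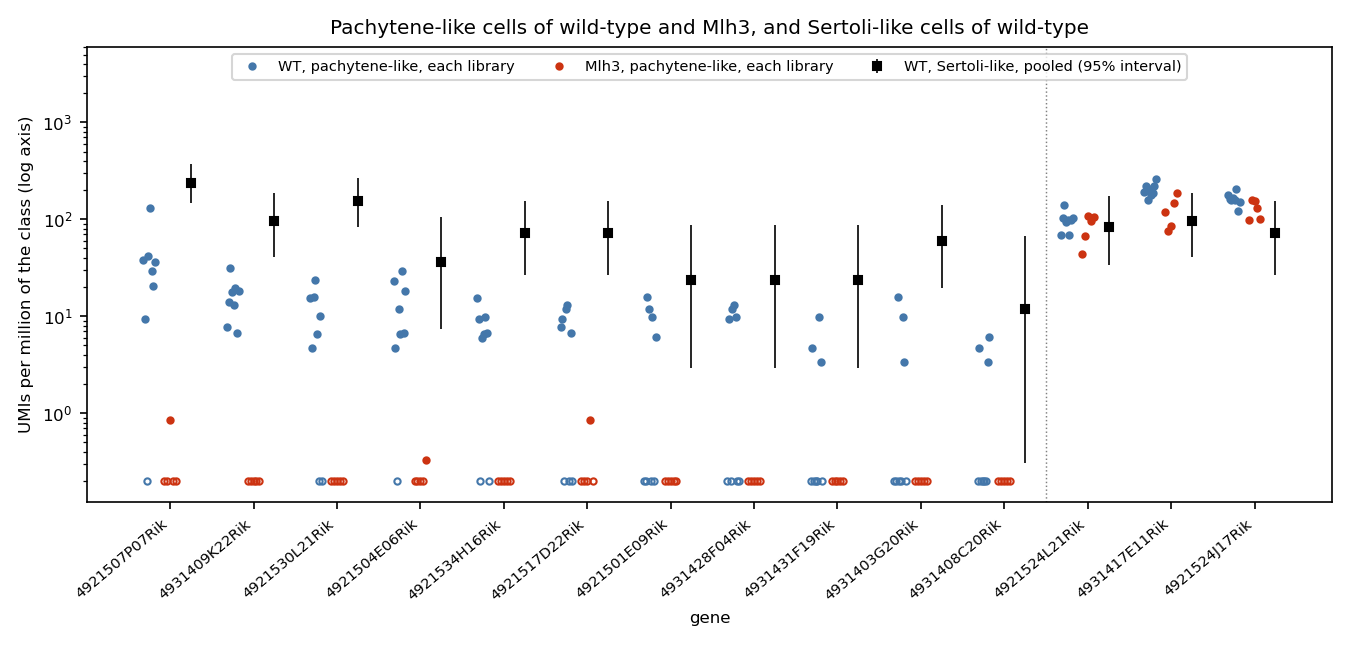
CPM (log axis) in pachytene-like cells of each wild-type and Mlh3-/- library for the 11 genes called lower (left of the dotted line) and 3 others, with the pooled level of wild-type Sertoli-like cells and its 95% interval; open points drawn at 0.2 are libraries without a UMI. The Sertoli-like level lies above the wild-type pachytene-like level for all 11 genes.

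Few of the genes were called in the other mutants, which have 2 libraries each. In Cul4a-/- testes 2 of 54 were lower and 0 higher (0.833% and 3.95% of all genes), with a median log2 change of -0.20. They were 4931403G20Rik (log2 change -1.19) and Jhy, 4931429I11Rik (-0.89), whose CPM was 29.8 and 30.3 against 48.4 to 62.9 in wild-type. With either Cul4a-/- library left out 0 of the 54 were called, and DESeq2 gave 6 lower and 1 higher, with 835 lower and 643 higher of all genes in place of 193 and 916. A fit of Cul4a-/- and wild-type alone gave 10 lower and 2 higher, and the replicate block 0 lower, so the count turns on the fit. In CNP testes 2 were lower and 0 higher (0.859% and 0.117% of all genes), with a median of -0.40. These were 4921528I07Rik (log2 change -1.81, edgeR adjusted p = 0.00662) and 4931408C20Rik (-1.56, edgeR adjusted p = 0.0456), and with either CNP library left out 0 were called. DESeq2 called 5 lower there, and scaling by library size alone turned the split of all genes from 199 lower and 27 higher to 116 and 83.

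Mlh3-/- and Cul4a-/- mice are both labelled B6;129, though the methods give B6.129 for Mlh3, and between them 45 genes were lower and 1, 4931406P16Rik, higher (31.6% and 18.4% of all genes), with a median of -3.97 against -0.23 over all genes. Both contrasts of Mlh3-/- share its libraries. Of pachytene genes 1 of 6 was lower in this contrast, and 4921524J17Rik differed by 0.01 (SE 0.24). Scaling by library size alone gave 38 lower and 5 higher, with 5,178 lower and 7,863 higher of all genes in place of 7,324 and 4,273.

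RIKEN genes of other series were set beside these without a test. Of 693 genes from the other testis clone series, such as 4930404N11Rik, 80.8% were lower and 4.91% higher in Mlh3-/- (median log2 change -3.96), against 87.0% and 3.70% of the 54, and within pachytene-like cells 23.7% and 0.74% were called lower and higher against 25.6% of those tested. Of 494 other RIKEN genes 42.7% were lower and 24.3% higher (median -0.34), against 44.2% and 28.6% of all genes with at least 20 UMIs. From the divisions to round spermatid-like cells 61.9% of the other testis RIKEN genes and 24.9% of the remaining RIKEN genes rose, against 57.4% of the 54.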

How the data were processed

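Drop-seq libraries of 11 wild-type, 6 Mlh3-/-, 2 Cul4a-/- and 2 CNP testis samples and of 4 sorted populations were analysed. The authors aligned reads with STAR 2.5.3a to GRCm38 and deposited raw UMI counts per gene and barcode for each library, and whether counting used strand is not given in the sources used here. For whole libraries all barcodes were summed. For classes, barcodes with at least 200 UMIs and 50 genes were kept (36,618 of 48,642 after a limit of 2 on the mt-Rnr2 excess), clustered on 2,500 variable genes and 40 principal components (scanpy 1.11.5, Leiden resolution 3, RIKEN genes of interest and mitochondrial genes left out), and named from markers. Naming limits were set after the clusters were seen. Genes with a summed count of at least 5 were tested by edgeR 4.0.16 (quasi-likelihood, TMM, R 4.3.3) with all strains of WT3 to WT11, Mlh3, Cul4a and CNP in 1 fit. DESeq2 1.42.0 was an alternative. Classes of a library entered with at least 10 cells. A peak needed 10 UMIs.

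Levels are CPM, UMIs scaled to 1000000 in the library or class, with exact Poisson intervals at 95% that cover counting error only. Library depth ran from 107,117 to 9,745,302 UMIs, so that 1 UMI is worth 9.34 CPM in the shallowest (sorted primary spermatocytes). Replicates are libraries with labels of their own. Mlh3-/- replicates 2 and 3 share an age, as do WT3 and WT7, and no label says whether they share an animal, so p-values measure the spread between libraries, which may be technical in part. The Mlh3-/- pair was also merged as an alternative. Named genes were the 12 with the most UMIs, those higher in Mlh3-/- and those called in pachytene-like cells, and others of the 54 are given by class. The members and lists were chosen with earlier results of these data known. Same-numbered libraries did not deviate together (r from -0.18 to 0.049 over 10 pairs), so the numbers do not pair them. The scripts were run on simulated counts in which few genes changed, as many up as down. The scaling of a contrast as wide as that of Mlh3-/- was therefore not tested.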

Additional observations from a re-analysis of the deposited data

Results flagged for a closer look

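Among the 12 genes with the most UMIs and the others named by rule, 40 groups of 4 to 10 libraries were checked for a library far from the rest, and 7 were found, where chance gives about 1 in 20. Mlh3-/- replicate 2 accounts for 3 of them, each from few UMIs in the shallowest library of its group: 4931409K22Rik at 2.22 CPM (0 to 0.711 in the other 5), 4921534H16Rik at 2.22 CPM (0 in the others) and 4931428F04Rik at 13.3 CPM (0.158 to 3.22 in the others). 4921511H03Rik stood at 41.8 CPM in Mlh3-/- replicate 6 and at 19.8 to 27.7 in the other 5. In wild-type, 4921530L21Rik stood at 187 CPM in replicate 9 (116 to 144 in the other 8), 4921517D22Rik at 76.1 CPM in replicate 5 (50.4 to 62.9) and 4921501E09Rik at 84.2 CPM in replicate 4 (46.4 to 59.7). Each of these libraries stayed on its side of the difference between wild-type and Mlh3-/-.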

How the results depend on the processing

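The loss in Mlh3-/- testes held under the alternatives run: 39 to 48 of the 54 genes were lower and 41 to 49 of the 49 calls were kept. Scaling by library size alone gave 4 higher genes, 5 against Cul4a-/-, and turned 4921524L21Rik (0.23), 4931423N10Rik (0.039), 4931415C17Rik (0.068), 4931440P22Rik (0.0033), 4931406B18Rik (0.26) and 4931431C16Rik (0.32). With the replicate block, although the numbers do not pair the libraries, genes called fell to 219 (Cul4a-/-), 7396 (Mlh3-/- against Cul4a-/-) and 289 (pachytene-like), and RIKEN genes lower to 40 (Mlh3-/-), 0 (Cul4a-/-), 0 (CNP) and 2 (pachytene-like). Against 1109 genes called in Cul4a-/- there were 481 with WT1 and WT2 included, 2025 in HiSeq libraries and 3831 with only the 2 strains compared, with 0, 4 and 10 RIKEN genes lower and, in the last, 2 higher. DESeq2 gave 6 lower and 1 higher. Against 226 genes called in CNP there were 691 with DESeq2, 442 with filterByExpr, 127 with WT1 and WT2 included, 457 in HiSeq libraries, 685 with only the 2 strains and 445 with Mlh3-/- replicates 2 and 3 merged, with 5, 4, 1, 4, 5 and 4 RIKEN genes lower. Library size alone or a filter of 1 count left 1.

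In pachytene-like cells 7 RIKEN genes were lower without the mt-Rnr2 limit, where 4921524J17Rik was 0.021 and 4921524L21Rik -0.055. DESeq2 gave -0.027 for 4921524L21Rik and -0.0425 for 4921536K21Rik, a limit of 50 cells gave -0.11 for 4921536K21Rik and -0.12 for 4931406P16Rik, and the replicate block -0.40 for 4931406P16Rik. DESeq2 gave 11 lower and 4 higher on the step into pachytene. 4921504E06Rik changed by -0.0235 from divisions to round spermatids at another resolution.

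With 1 library left out, genes called ranged from 284 to 1617 (Cul4a-/-) and 40 to 459 (CNP), RIKEN genes lower from 0 to 2 (Cul4a-/-), 0 to 4 (CNP) and 0 to 1 (step into pachytene), and log2 changes from -0.0248 to 0.43 for 4921523L03Rik in whole libraries and, in pachytene-like cells, -0.0648 to 0.13 for 4921524L21Rik and -0.0434 to 0.21 for 4921536K21Rik. A lone library is assumed to vary like the other groups. The causes were not tested. Counts under 10 UMIs in small classes limit the early peaks.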
